A study of Mus musculus with 22 samples.

Results

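Cardiomyocytes of 3 Cre-only mice were compared with those of 5 wild-type (WT) mice, which are 8 of the 22 samples of the series. The Cre-only mice were the control mice of the CASK line: the cardiac alpha-myosin heavy chain promoter drives Cre recombinase in their heart muscle cells (genotype MHC-Cre), and they carry no floxed CASK allele. They were on a mixed background and 12.4, 12.7 and 11 weeks old. The WT mice were the control mice of the MDX line and carry no transgene. WT replicates 1 and 2 were labelled C57Bl/6J (both 12.9 weeks), replicates 3 and 4 C57Bl/6 (13.9 and 14.7 weeks), and replicate 5 came from a mixed background backcrossed to C57Bl/6 (10.9 weeks). All mice were male and received heparin before they were killed. Each library came from 1 mouse, and the cells were isolated by enzymatic digestion of the perfused heart. The series covers cardiomyocytes of mice without CASK, without SAP97 or without dystrophin, each beside its control mice, and RNA was measured by sequencing of total RNA. Members were chosen by genotype and line, with earlier results of these data known, and counts of both deposited comparisons were joined by gene identifier. Cre, the strain background and the breeding line differ between both groups, and in this comparison they cannot be told apart. The study sequenced samples in 2 rounds and proposes a batch effect as the likely reason for the variation among MDX control mice, here WT. The round of sequencing of each library is not given in the sources used here.

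Cre recombinase joins DNA at loxP sites and, driven by the alpha-myosin heavy chain promoter, is widely used to delete floxed genes in heart muscle. Mice that carry Cre without a floxed gene are the control for effects of the transgene itself. Several stress programs are well described in the heart: a fetal or hypertrophic program led by natriuretic peptides and skeletal actin, the transcription factor p53 that answers DNA damage, and the integrated stress response, in which the factor ATF4 switches on genes of amino acid and one-carbon metabolism.

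The Cre-only libraries held 33988592 to 40469641 counts and the WT libraries 24253610 to 32839495. Levels are given in CPM (the count divided by the library's total and brought to a common scale) after TMM scaling, an edgeR method that corrects for differences in composition. Markers of cardiomyocytes were abundant in both groups, with a summed level of 96500 to 115000 CPM in Cre-only and 84500 to 109000 CPM in WT, against 302 to 556 CPM in Cre-only and 380 to 669 CPM in WT for 15 endothelial markers. WT replicate 3 stood apart from its group, with a mean correlation of 0.922 to the other WT libraries (0.942 to 0.963 for the others), and 62 genes were called without it, against 60 with it. WT replicates 2, 4 and 5 had higher mean correlations to Cre-only (0.971, 0.961 and 0.956) than to WT (0.963, 0.957 and 0.942). Ribosomal RNA took 0.313 to 0.421% of read pairs in Cre-only and 0.622 to 7.86% in WT, ranges that do not overlap, and the part of this difference in the results was not tested. Labels of the series mention poly-A selection for WT samples, but replication-dependent histone messengers, which lack a poly-A tail, held 0.0258 to 0.035% of counts in Cre-only and 0.0188 to 0.0349% in WT. Cask was measured at 9.6, 8.57 and 8.53 CPM in Cre-only and at 7.24, 7.89, 5.7, 9.73 and 6.36 CPM in WT, and the groups overlapped (log2 fold change 0.27 ± 0.20 SE, edgeR adjusted p = 0.552).

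At the threshold used, the genes called between Cre-only and WT cardiomyocytes were few and their changes were large. In simulated data this fit called 8% of genes changed 2-fold and 82% of those changed 4-fold. Smaller changes can therefore go uncalled, and the number of calls does not give the extent of the difference. The genes called higher included 5 of 17 tested genes of the fetal and hypertrophic program, 2 of 23 p53 targets and 4 of 25 genes of the integrated stress response, and those called lower included 6 genes over 500 kb long, among them Dmd. The gene lists were chosen with earlier results of these data known, so their counts are a description only. Of 14414 genes tested with edgeR's quasi-likelihood test (2-sided, Benjamini-Hochberg adjustment), 60 were called at an adjusted p of 0.01, the threshold of the study. Of these, 45 were higher (0.312% of genes tested) and 15 were lower in Cre-only (0.104%). At an unadjusted p under 0.05, 1076 genes were higher (7.46%) and 1049 were lower (7.28%), and the median log2 fold change over all genes was -0.03. For each of the 60 called genes, the 3 Cre-only libraries lay wholly above or wholly below the 5 WT libraries, and 57 of the 60 are protein coding. Among all 14414 genes tested, 1068 were separated in the same way on the higher side and 642 on the lower side. All 60 kept their direction under each of the 18 other settings tried. These settings use the same libraries, so groups without overlap could hardly reverse, and the kept direction says little. The number of calls did not hold: 4 genes were called without Cre-only replicate 1 and 4 without Cre-only replicate 2, 6 without WT replicate 1 and 6 without WT replicate 2, and 19 without WT replicate 4. DESeq2 called 411, among them all 60.

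**Figure D1:**
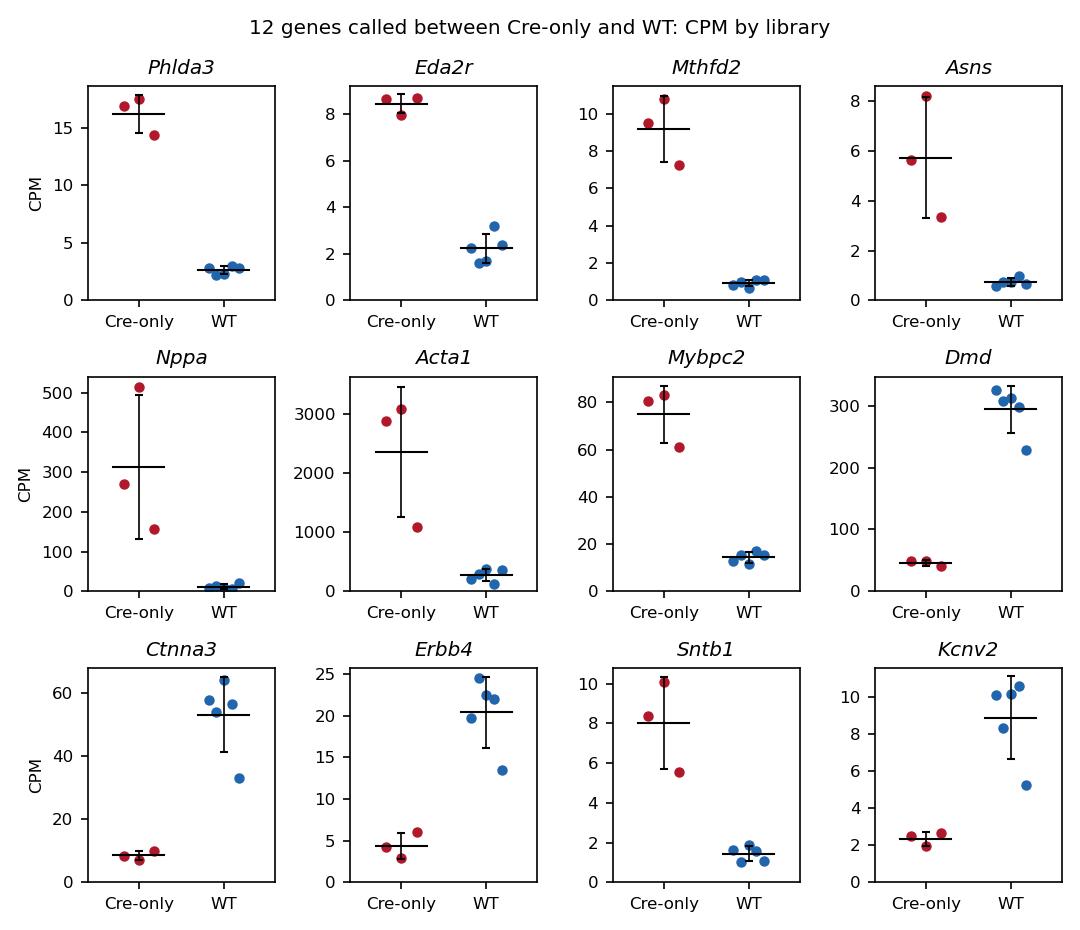
CPM of 12 called genes in each of the 3 Cre-only libraries (red) and the 5 WT libraries (blue), with the mean (long line) and SD (error bar) of each group on a linear axis from 0. In every panel the Cre-only points lie wholly on 1 side of the WT points. Dmd, for example, lies at 41.0 to 49.1 CPM in Cre-only and at 229 to 325 CPM in WT.

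Genes of the fetal and hypertrophic program were higher in Cre-only. Nppa, which encodes atrial natriuretic peptide, was measured at 270, 514 and 156 CPM in Cre-only, against 7.74, 14.4, 7.75, 7.01 and 22.3 CPM in WT. Its lowest Cre-only library lay far above its highest WT library, and the log2 fold change was 4.72 ± 0.48 (SE, edgeR adjusted p = 0.00279). Acta1, the skeletal alpha-actin that the fetal heart expresses, had 2870, 3080 and 1090 CPM in Cre-only and 216, 295, 375, 128 and 369 CPM in WT (log2 fold change 3.08 ± 0.41, edgeR adjusted p = 0.00572). Cre-only replicate 3 was the lowest of its group for both genes. Mybpc2, the myosin-binding protein C of fast skeletal muscle, had 80.6, 83.1 and 61.3 CPM in Cre-only and 12.9, 15.3, 11.5, 16.9 and 15.5 CPM in WT, and its groups did not overlap (log2 fold change 2.38 ± 0.18, edgeR adjusted p = 2.27e-04).

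Of 17 tested genes of the fetal and hypertrophic list, 5 were called higher and none lower, and 15 had an unadjusted p under 0.05 in the direction of Cre-only. The median log2 fold change of the list was 1.52. The other 2 called members were Gdf15, a secreted stress cytokine (38.6, 24.6 and 13.3 CPM in Cre-only, 1.33 to 4.4 CPM in WT), and Ctgf, a matrix-associated growth factor of fibrosis (268, 197 and 69.4 CPM in Cre-only, 22.6 to 37.4 CPM in WT). Nppb, which encodes brain natriuretic peptide, and Ankrd1, a stretch-responsive ankyrin repeat protein, had log2 fold changes of 2.37 and 2.14 and did not pass at 0.01. Myh7, the fetal ventricular myosin heavy chain, had a log2 fold change of 1.07 ± 0.35 (edgeR adjusted p = 0.198), and Myh6, the adult form, of 0.07 ± 0.26 (edgeR adjusted p = 0.925).

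Nppa is also a marker of atrial muscle. Of 7 tested atrial markers it was the only one called, and the other 6 had negative log2 fold changes. Sln, an atrial regulator of the calcium pump, lay at 0.598, 0.0872 and 6.07 CPM in Cre-only and at 3.92 to 6.68 CPM in WT. Myl4, the atrial essential myosin light chain, lay at 5.04, 2.73 and 25.2 CPM in Cre-only and at 9.81 to 28.0 CPM in WT. The Cre-only libraries with the most Nppa were the ones with the least Sln and Myl4.

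The promoter of Acta1 is shown because it holds a CArG box, the motif bound by serum response factor in muscle genes. The sequence is from RefSeq (build GRCm38.p6), minus strand, chr8:123894804-123894878, 5′ to 3′, and the capitals mark the CArG box, whose first base lies 73 bases before the start site.
Acta1: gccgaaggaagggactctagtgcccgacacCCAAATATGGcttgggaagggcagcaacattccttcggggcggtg
Within 250 bases before the start site, a CArG box on either strand was found in 1.47% of 32851 promoters and in 2 of 68 promoters of 49 called genes, those of Acta1 and Dmd. A match is a description of these letters only.

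Part of the p53 target genes was higher in Cre-only. Phlda3, a p53 target that inhibits AKT signalling (chr1:135766119-135769136, GRCm38), was measured at 16.9, 17.5 and 14.4 CPM in Cre-only and at 2.84, 2.23, 2.28, 3.0 and 2.86 CPM in WT. Its replicates were tight in both groups, and it shared the smallest adjusted p of all genes with Mthfd2 (log2 fold change 2.62 ± 0.17, edgeR adjusted p = 2.14e-04). Eda2r, a death receptor induced by p53, had 8.63, 7.96 and 8.69 CPM in Cre-only and 2.25, 1.6, 1.71, 3.18 and 2.39 CPM in WT (log2 fold change 1.91 ± 0.23, edgeR adjusted p = 0.0047). Ephx1, an epoxide hydrolase of detoxification, had 30.6, 40.5 and 30.9 CPM in Cre-only and 7.98, 7.3, 11.6, 9.45 and 11.6 CPM in WT (log2 fold change 1.83 ± 0.20, edgeR adjusted p = 0.00306).

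Among 23 tested p53 targets, 2 were called higher and none lower, 8 had an unadjusted p under 0.05 on the higher side and 4 on the lower side, and the median log2 fold change was 0.31. Cdkn1a, the cell cycle inhibitor p21, had 21.1, 14.7 and 17.6 CPM in Cre-only against 4.49, 4.24, 5.07, 5.03 and 10.2 CPM in WT, and although the groups did not overlap it missed the threshold (log2 fold change 1.62, edgeR adjusted p = 0.0227). Perp, a p53 target of desmosomes, had 160, 169 and 120 CPM in Cre-only against 52.0 to 88.7 CPM in WT (edgeR adjusted p = 0.0411). The targets were not uniform: Mdm2, the ubiquitin ligase of p53, had a log2 fold change of 0.31, Ccng1 of 0.28, Fas of 0.01, Gadd45a of -0.97 and Btg2 of -0.82. None of 22 tested genes of DNA damage signalling and repair was called, and 1 had an unadjusted p under 0.05. Of 17 apoptosis regulators, 1 was called: Bcl2, which protects cells from apoptosis, had 18.9, 13.8 and 16.7 CPM in Cre-only and 5.82, 4.01, 6.16, 5.31 and 5.38 CPM in WT (log2 fold change 1.63 ± 0.19, edgeR adjusted p = 0.00353).

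Genes of the integrated stress response and of one-carbon metabolism split. Mthfd2, the mitochondrial folate enzyme that is low in most adult tissues, was measured at 9.53, 10.8 and 7.26 CPM in Cre-only and at 0.827, 1.01, 0.684, 1.08 and 1.07 CPM in WT, with a log2 fold change of 3.28 ± 0.22 (edgeR adjusted p = 2.14e-04). Asns, asparagine synthetase, had 5.62, 8.22 and 3.34 CPM in Cre-only and 0.591, 0.742, 0.741, 0.988 and 0.64 CPM in WT (log2 fold change 2.94 ± 0.31, edgeR adjusted p = 0.00306). Trib3, a pseudokinase that dampens ATF4, had 3.66, 3.14 and 1.46 CPM in Cre-only and 0.386 to 0.648 CPM in WT (log2 fold change 2.37 ± 0.35, edgeR adjusted p = 0.00949). With Gdf15, 4 of 25 tested members were called higher and none lower, and the groups did not overlap for any of the 4.

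Psat1 of serine synthesis and the hormone Fgf21 had log2 fold changes of 2.34 and 4.76 without passing at 0.01. On the other side stood Atf3, a stress-induced transcription factor, at 37.9, 24 and 43.4 CPM in Cre-only and 79.4, 109, 149, 104 and 158 CPM in WT (log2 fold change -1.77, edgeR adjusted p = 0.0142), and Cebpb, Cth and Ddit3 at -1.84, -1.31 and -0.75. Atf4 itself had a log2 fold change of -0.11. The list held 10 members with an unadjusted p under 0.05 on the higher side and 5 on the lower side, with a median of 0.58. Both amino acid transporters Slc38a1 (38.1, 36.6 and 24.2 CPM in Cre-only, 8.58 to 12.5 CPM in WT) and Slc38a4 (27.7, 32.4 and 17.6 CPM in Cre-only, 5.42 to 9.39 CPM in WT) were called higher as well.

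The promoter of Asns is shown because it holds an element of the form TGATGNAA, the kind to which ATF4 binds together with C/EBP factors. The sequence is from RefSeq (build GRCm38.p6), minus strand, chr6:7693210-7693284, 5′ to 3′, the last 75 bases before the start site, and the capitals mark the element.
Asns: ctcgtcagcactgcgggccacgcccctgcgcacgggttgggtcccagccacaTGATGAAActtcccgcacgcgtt
Within 250 bases before the start site, TGATGNAA on either strand was found in 3.45% of 32851 promoters and in 3 of 68 promoters of the called genes, those of Asns, Exoc2 and Fgl2.

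Dmd, which encodes dystrophin, the protein that ties the cytoskeleton to the membrane, was lower in Cre-only with little spread between libraries. It was measured at 49.1, 48.4 and 41.0 CPM in Cre-only and at 325, 308, 312, 297 and 229 CPM in WT, a mean of 46.2 ± 4.48 CPM against 294 ± 37.7 CPM (SD, n = 3 and 5). The log2 fold change was -2.67 ± 0.19 (edgeR adjusted p = 2.27e-04), and the call was lost in 1 of 18 other settings. Dmd spans 2257 kb of chromosome X (82948870 to 85206141, GRCm38). Ctnna3 encodes an alpha-catenin found at intercalated discs. It had 8.47, 7.24 and 10 CPM in Cre-only and 57.9, 54.2, 64.1, 56.7 and 33.0 CPM in WT (log2 fold change -2.63 ± 0.25, edgeR adjusted p = 0.00159), and it spans 1574 kb. WT replicate 5, of mixed origin, was the lowest WT library for both genes and still lay far above the Cre-only libraries.

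Of 19 tested members of the dystrophin complex, 1 was called higher and 1, Dmd itself, was called lower. The called higher member was Sntb1, which encodes the adapter beta1-syntrophin, at 8.38, 10.1 and 5.54 CPM in Cre-only and 1.65, 1.01, 1.88, 1.57 and 1.07 CPM in WT (log2 fold change 2.48 ± 0.27, edgeR adjusted p = 0.00319). Nos1, neuronal nitric oxide synthase, had 1.38, 1.63 and 0.662 CPM in Cre-only and 0.213 to 0.399 CPM in WT, with an edgeR adjusted p of 0.04. Utrn, the dystrophin relative utrophin, and Dag1, dystroglycan, had log2 fold changes of 0.01 and -0.07. In the intercalated disc list, Ctnna3 was the only call among 19 tested members, and Xirp2, a stretch-sensitive actin-binding protein, had 2610, 2320 and 1130 CPM in Cre-only and 585 to 1040 CPM in WT (edgeR adjusted p = 0.0742).

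The called lower genes were long. Of the 15, 6 span more than 500 kb: Dmd, Ctnna3, Dpyd (dihydropyrimidine dehydrogenase of pyrimidine breakdown), Erbb4 (a neuregulin receptor), Immp2l (a mitochondrial inner membrane peptidase) and Pard3b (a polarity protein). The median span was 160 kb for the called lower genes, 20.2 kb for the called higher genes and 20.1 kb for all genes tested. Dpyd had 1.73, 1.54 and 2.52 CPM in Cre-only and 8.58 to 12.4 CPM in WT (log2 fold change -2.48 ± 0.23). Erbb4 had 4.28, 2.91 and 5.99 CPM in Cre-only and 13.5 to 24.5 CPM in WT (log2 fold change -2.22 ± 0.28). Both had groups that did not overlap.

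Long genes leaned the same way with and without the called ones. Among 122 tested protein-coding genes over 500 kb, 6 were called lower and 1 higher, 31 had an unadjusted p under 0.05 on the lower side and 8 on the higher side, and the median log2 fold change was -0.35. Over the 115 of them that were not called, 25 lay on the lower side and 7 on the higher side at that p, with a median of -0.32. The median was -0.16 for 541 genes of 200 to 500 kb, -0.09 for 1117 genes of 100 to 200 kb and 0.03 for 5790 genes of 10 to 50 kb. The lean was smaller with age as a covariate (-0.15) and was absent over the 216 genes tested with no filter on low counts (0.01). It also varied between mice of 1 group. For each library, levels in log2 CPM were set relative to each gene's mean over the WT libraries. The median of genes over 500 kb minus that of genes up to 50 kb was -0.16, -0.32 and -0.37 in Cre-only. In WT it was 0.06, -0.06, 0.23, 0.05 and -0.34, so that WT replicate 5 lay within the Cre-only range. In CASK KO it was 0.08, -0.48 and -0.18, and in SAP97 KO 0.04, -0.14 and 0.06. In SAP97 control it was -0.13, 0.08 and -0.18, and in MDX 0.0, -0.07, 0.09 and -0.25. The share of read pairs outside annotated features, 5.72, 3.17 and 3.25% in Cre-only and 9.01, 4.87, 10.3, 5.04 and 2.45% in WT, was lowest in WT replicate 5 and highest in WT replicate 3, and its part in the lean was not tested.

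**Figure D2:**
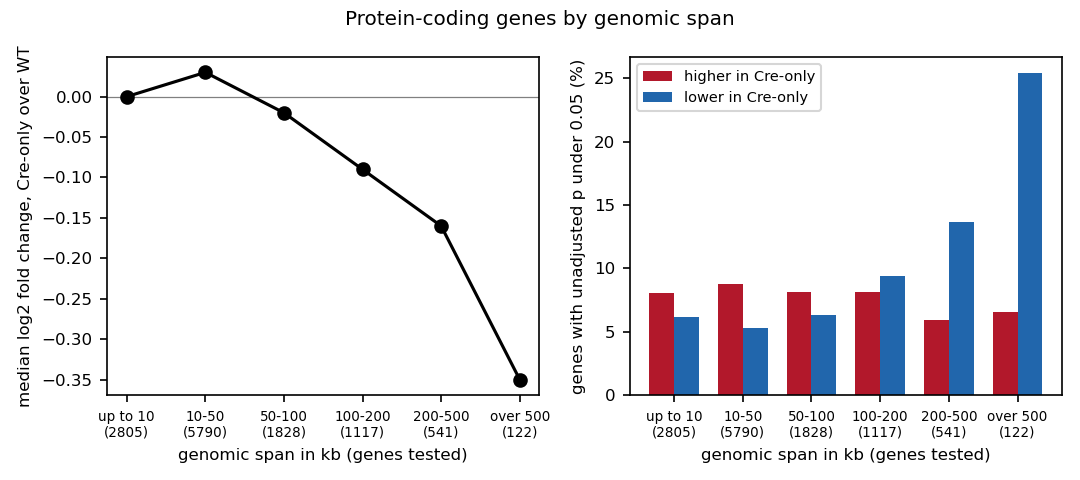
Left, median log2 fold change (Cre-only over WT) of protein-coding genes in 6 classes of genomic span, with the number tested in brackets. Right, share of genes in each class with an unadjusted p under 0.05, higher (red) and lower (blue) in Cre-only. The median falls to -0.35 in the 122 genes over 500 kb, where 31 genes lie on the lower side and 8 on the higher.

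Other called lower genes were short or of middle length. Amy1, an amylase of salivary gland and liver type with close paralogs that can make its count uncertain, had 0.829, 0.988 and 0.689 CPM in Cre-only and 3.46 to 5.47 CPM in WT (log2 fold change -2.28 ± 0.27). Efnb3, an ephrin ligand, had 15.4, 9.56 and 14.4 CPM in Cre-only and 35.9 to 49.9 CPM in WT (log2 fold change -1.71 ± 0.21). Neither gene overlapped between groups. Further called lower genes were Wif1, a secreted WNT inhibitor (log2 fold change -2.01), Acsm5, a medium-chain acyl-CoA synthetase (-2.31), Poln, a DNA polymerase (-2.75), Exoc2, an exocyst subunit (-1.25), Kcnv2 (-1.91) and the predicted gene Gm17034 (-2.85).

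Calls in the lists of contraction and conduction are set beside all genes tested, of which 0.312% were called higher and 0.104% lower. With such shares, a list of this size without a call says little. Of 27 sarcomere genes, Acta1 was the only one called. None of 26 calcium handling genes was called. Of 30 cardiac ion channels, Kcnv2, a silent subunit that modifies Kv2 potassium channels, was called lower (2.49, 1.95 and 2.65 CPM in Cre-only, 10.1, 8.34, 10.2, 10.6 and 5.25 CPM in WT, edgeR adjusted p = 0.00696). Kcnd2, a channel of the transient outward current, had 15.6, 10.9 and 19.4 CPM in Cre-only and 29.9 to 39.6 CPM in WT (edgeR adjusted p = 0.0227), without overlap.

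Of 34 tested genes of the matrix list, 2 were called higher, Ctgf and Timp1, a tissue inhibitor of metalloproteinases (6.65, 9.04 and 2.89 CPM in Cre-only, 0.502, 0.593, 1.37, 0.401 and 0.64 CPM in WT, log2 fold change 3.19 ± 0.44, edgeR adjusted p = 0.00694). Another 12 had an unadjusted p under 0.05 on the higher side and 1 on the lower side, and the list median was 0.34. Tgfb2, a transforming growth factor, had 33.6, 27.6 and 10.6 CPM in Cre-only and 2.9 to 8.15 CPM in WT (edgeR adjusted p = 0.0173). Col1a1, the main fibrillar collagen, had a log2 fold change of 0.21. The summed level of 9 mural cell markers was 1750 to 3010 CPM in Cre-only and 1400 to 1840 CPM in WT, and its part in these genes was not tested. Most of this sum was Des, which is also in the intercalated disc list, at a mean of 1760 CPM in Cre-only and 979 CPM in WT. Of the 9 markers, 6 had a negative log2 fold change, and the median was -0.32. Of 11 fibroblast markers none was called, and 4 had an unadjusted p under 0.05 on the higher side (Postn, Mfap5, Col3a1 and Col1a2, with log2 fold changes of 1.49, 1.16, 0.69 and 0.59) and none on the lower side. The summed level of these markers was 295 to 543 CPM in Cre-only and 312 to 453 CPM in WT, and their part in the matrix genes was not tested.

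Several called higher genes are also made by macrophages or other non-muscle cells: Lgals3, galectin-3 (5.89, 10.3 and 3.02 CPM in Cre-only, 0.171 to 0.831 CPM in WT), Gpnmb, a glycoprotein of phagocytes (1.4, 2.53 and 0.821 CPM in Cre-only, 0.0886 to 0.237 CPM in WT), and Fgl2, a prothrombinase (172, 189 and 102 CPM in Cre-only, 27.4 to 54.1 CPM in WT). The summed level of macrophage markers was 60.2 to 117 CPM in Cre-only and 38.0 to 67.6 CPM in WT. None of the 11 tested was called, and 5 had an unadjusted p under 0.05 on the higher side. Adgre1, which defines macrophages, had 6.65, 3.25 and 3.18 CPM in Cre-only and 1.2 to 3.0 CPM in WT. The exact permutation test over libraries gave p = 0.0357 for the macrophage sum (2-sided, adjusted p = 0.131 over 22 measures, smallest possible p = 0.0179). Lgals3 and Gpnmb were highest in Cre-only replicate 2, Adgre1 in replicate 1, and the part of macrophages in these genes was not tested. In such bulk samples, more cells of a type and more RNA per cell cannot be told apart.

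The remaining called higher genes with large changes were of several kinds. Maats1, a ciliary protein, had 247 counts in the Cre-only libraries together and 4 in the WT libraries together. Serpinb1c, a serine protease inhibitor with close paralogs, had 191 counts in Cre-only and 7 in WT, and Sprr1a, a small proline-rich protein of injured tissue, had 202 counts in Cre-only and 9 in WT. Their fitted log2 fold changes of 6.03, 4.99 and 4.68 depend on the prior count at such low WT levels. Krt18, a keratin of simple epithelia, had 7.53, 8.05 and 3.63 CPM in Cre-only and 0.648 to 1.14 CPM in WT. Edn3, the peptide endothelin-3, had 7.25, 10.8 and 4.8 CPM in Cre-only and 0.798 to 1.87 CPM in WT. Rtn4, a reticulon of the endoplasmic reticulum, had 180, 207 and 107 CPM in Cre-only and 40.1 to 53.7 CPM in WT. Uchl1, a neuronal ubiquitin hydrolase, was the only call among 5 tested Schwann and neuronal markers (log2 fold change 1.39, edgeR adjusted p = 0.00963). The summed level of these neuronal markers was 11.6 to 16.6 CPM in Cre-only and 5.58 to 8.55 CPM in WT, and their part in the result was not tested. Uchl1 itself averaged 10.5 CPM in Cre-only and 4.0 CPM in WT, most of mean sums of 13.6 and 6.84 CPM. Of the 5 tested markers, 3 had a positive and 2 a negative log2 fold change, with a median of 0.09.

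Immediate-early genes and clock genes leaned lower in Cre-only, but none was called at 0.01. Of 30 immediate-early and heat shock genes, 14 had an unadjusted p under 0.05 on the lower side and 2 on the higher side, with a median log2 fold change of -0.76. Dusp1, a phosphatase induced by stress kinases, had 31.8, 21.4 and 32.0 CPM in Cre-only and 65.7, 66.1, 125, 76.4 and 69.7 CPM in WT (edgeR adjusted p = 0.0227). Of 19 clock genes, 11 had an unadjusted p under 0.05 on the lower side and 1 on the higher side (Cry1), with a median of -0.66. Dbp, an output factor of the clock, had 1.27, 3.75 and 6.6 CPM in Cre-only and 13.1, 15.1, 16.7, 15.3 and 20.6 CPM in WT (edgeR adjusted p = 0.0454). WT replicate 3 was the highest WT library for Dusp1, and the other 4 lay between 65.7 and 76.4 CPM, all above the Cre-only libraries.

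**Figure D3:**
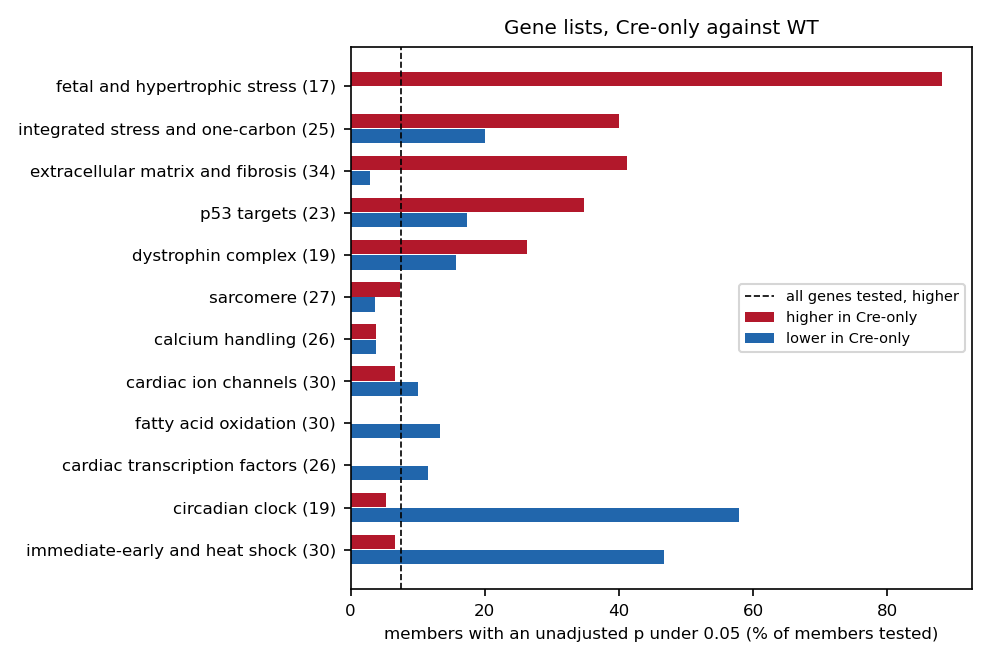
Share of tested members with an unadjusted p under 0.05 in 12 gene lists, higher (red) and lower (blue) in Cre-only than in WT, with the number tested in brackets. The dashed line is the share of all genes on the higher side, 7.46%. The fetal and hypertrophic list has 15 of 17 members on the higher side, and the clock list has 11 of 19 on the lower side.

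The SAP97 line gave a second comparison of mice with and without Cre, which shares no library with the first. SAP97 KO mice carry MHC-Cre and floxed SAP97, and SAP97 control mice carry floxed SAP97 and, by their labels and the methods, no Cre, while a library table of the study writes Cre in their genotype. Both groups were on a mixed background. Of the 45 genes called higher in Cre-only, 45 had a positive log2 fold change in SAP97 KO over SAP97 control, with a median of 1.06. Of the 15 genes called lower in Cre-only, 15 had a negative one, with a median of -0.84. Over all 14414 genes, 49.7% were positive and the median was -0.00. Among the called genes, Maats1 and Sprr1a had 0 CPM in SAP97 control and averaged 0.0644 and 0.142 CPM in SAP97 KO. Their direction in this line rests on few reads. The SAP97 KO libraries lay wholly above the SAP97 control libraries for 32 of the 45 (6.24% of all genes) and wholly below them for 13 of the 15 (6.64% of all genes).

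Few of these differences passed on their own. In 1 edgeR model of 21 libraries, 2 of the 45 and 3 of the 15 were called in SAP97 KO against SAP97 control, against 2 of all 14414 genes called higher (0.0139%) and 4 called lower (0.0278%). The unadjusted p lay under 0.05 on the higher side for 35 of the 45 (3.25% of all genes) and on the lower side for 11 of the 15 (1.82% of all genes). Among those called were Phlda3 (log2 fold change 1.98), Rab31, a small GTPase of vesicle traffic (1.30), Amy1 (-1.75) and Exoc2 (-0.92). Leaving out any 1 of the 6 libraries of the SAP97 line left at least 44 of the 45 positive and at least 14 of the 15 negative. For the larger set of genes called by DESeq2, 235 of 258 higher genes were positive and 119 of 153 lower genes were negative. SAP97 KO mice also lack SAP97, so that Cre and the loss of SAP97 cannot be told apart within that line.

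**Figure D4:**
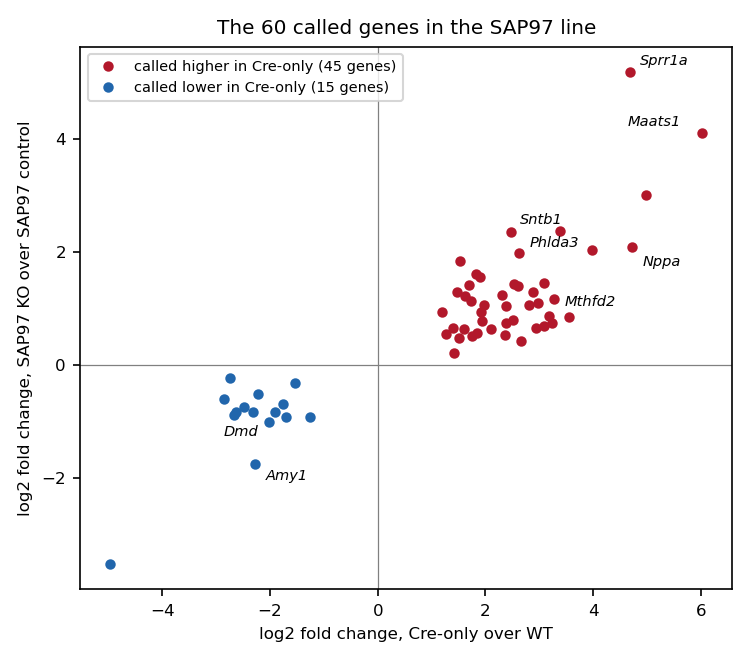
Log2 fold change of Cre-only over WT (horizontal) and of SAP97 KO over SAP97 control (vertical) for the 45 genes called higher (red) and the 15 called lower (blue) in Cre-only. All 45 lie above 0 and all 15 below 0 on the vertical axis, where most lie closer to 0 than on the horizontal axis.

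Levels in all 6 groups, scaled over 21 libraries, placed Cre-only at the extreme for the genes named here. Phlda3 averaged 16.7 CPM in Cre-only, 8.34 among CASK KO and 6.55 among SAP97 KO mice, groups that carry Cre, against 1.65 in SAP97 control, 2.68 in WT and 3.22 in MDX, which do not. Dmd averaged 47.4 ± 4.61 CPM in Cre-only and 186 ± 15.5 in SAP97 KO, against 346 ± 50.3 in SAP97 control and 298 ± 36.3 in WT (SD, n = 3 each, with 5 for WT). Mice of the MDX group, which carry a mutation in Dmd itself, averaged 104 ± 24.7 CPM (n = 4), so that Cre-only had the lowest Dmd level of all groups. The CASK KO libraries, which carry the same Cre in the same line as Cre-only, lay at 143 to 201 CPM, all above the Cre-only libraries at 42.1 to 50.3 CPM. Nppa averaged 322 CPM in Cre-only, 30.3 in CASK KO, 45.4 in SAP97 KO, 10.7 in SAP97 control, 12.1 in WT and 17.5 in MDX. All libraries with Cre lay above all those without it for Phlda3. They overlapped for Nppa, where the highest MDX library, at 31.2 CPM, lay above the lowest CASK KO library, at 26.3 CPM. Dmd was lower in MDX, without Cre, than in CASK KO and SAP97 KO. Other genes named here did not split by Cre as Phlda3 did. For Mthfd2, MDX, at 3.37 CPM, lay above CASK KO at 2.07 and SAP97 KO at 2.23. MDX also lay above CASK KO and SAP97 KO for Asns (1.99 against 0.903 and 0.918) and Trib3 (1.2 against 0.811 and 0.684). Cdkn1a averaged 18.3 CPM in Cre-only, 15.2 in CASK KO and 15.0 in MDX. It averaged 6.65 CPM in SAP97 KO, 2.22 in SAP97 control and 5.9 in WT. Within the SAP97 line its log2 fold change was 1.58, beside 1.62 for Cre-only over WT. These levels were not tested between all groups.

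**Figure D5:**
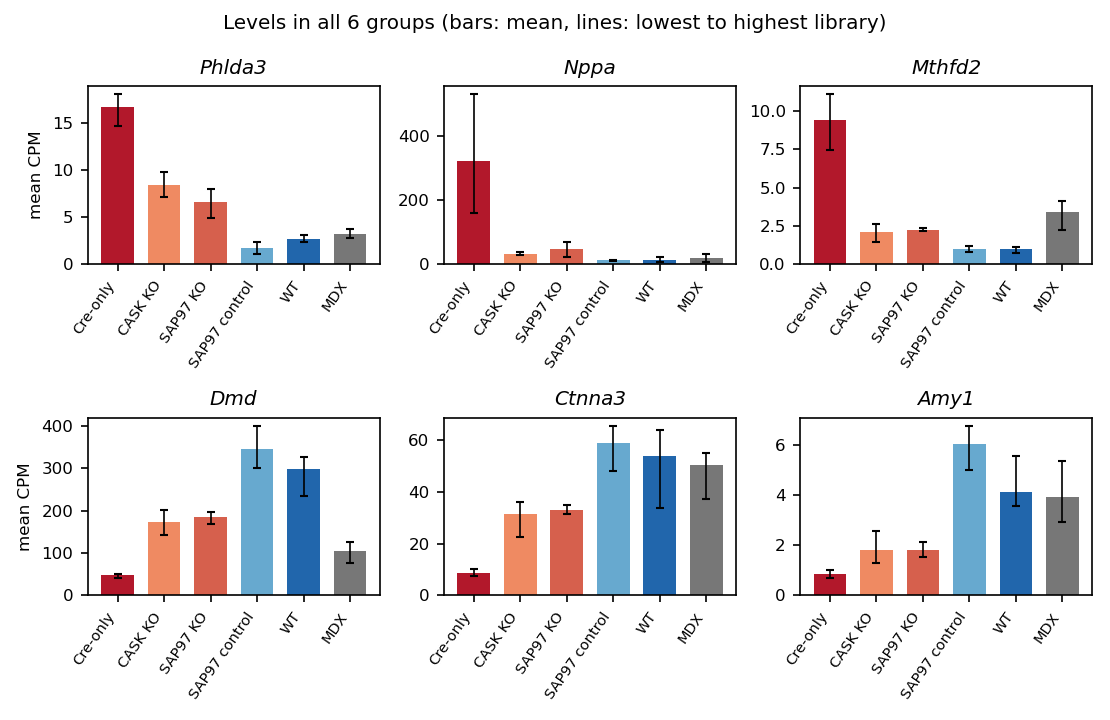
Mean CPM of 6 genes in all 6 groups (bars from 0, lines from the lowest to the highest library, 3 libraries a group, 5 for WT and 4 for MDX). Cre-only, CASK KO and SAP97 KO carry Cre. Phlda3 and Nppa are highest and Dmd and Ctnna3 lowest in Cre-only.

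The difference between both effects, Cre-only against WT and SAP97 KO against SAP97 control, was tested gene by gene. At an adjusted p of 0.01, 1 of 15620 genes differed (0.0064%), with 7 at 0.05. The 1 gene was Dlg1, which encodes SAP97 itself: it averaged 53.4 ± 3.40 CPM in Cre-only and 52.4 ± 5.87 in WT, and 12.1 ± 1.31 in SAP97 KO and 60.7 ± 5.48 in SAP97 control (difference of log2 fold changes 2.36 ± 0.18, edgeR adjusted p = 7.99e-07). For Dmd the change was larger in Cre-only by -1.76 ± 0.26 on the log2 scale (edgeR adjusted p = 0.0146), and for Mthfd2 by 2.13 ± 0.36 (edgeR adjusted p = 0.0278). A p that misses the threshold does not show that both effects are alike for the other genes.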

How the data were processed

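The authors depleted ribosomal RNA, removed remaining ribosomal reads with Bowtie2, aligned read pairs to GRCm38 with TopHat2 (2.0.13 per the submitters' processing notes) and counted them per gene with HTSeq 0.6.1. The deposited counts are whole numbers with no scaling. Whether counting used strand is not given in the sources used here. Columns of the authors' own fold changes and p-values were not used.

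The 2 deposited comparisons use different annotation releases. Of 46813 genes in both, 44848 were kept whose counts in the same libraries agreed within a ratio of 1.1 with a further deposited table, which covers all libraries and whose TPM values were not used. This dropped 1965 genes, and counts outside the kept genes, those of genes in only 1 of the tables included, were up to 2.24% of a library. MDX replicate 1 was left out of the 6-group model, as in the study's methods.

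Counts were filtered with filterByExpr, scaled by TMM and tested with the quasi-likelihood F test of edgeR 4.0.16 (limma 3.58.1, R 4.3.3, data.table version 1.17.8), 2-sided, with Benjamini-Hochberg adjustment and a call at 0.01. Each SE was derived from the F statistic of its gene (absolute log2 fold change divided by the root of F). Alternatives were DESeq2 1.42.0 and other scalings, filters, count sources, covariates and left-out libraries. Those of the SAP97 line were added after seeing the data. Single values were compared by exact permutation over 56 splits. The fits were tested on simulated data. Python 3.11.15 (pandas 2.3.3, numpy 2.4.6, scipy 1.17.1) and matplotlib 3.10.9 made tables and plots. Coordinates and spans are from GENCODE vM21 (GRCm38).

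Named genes are the 12 called genes with the largest change in each direction (at least 1 CPM in the higher group, no overlap), up to 4 of each of 38 lists, and Cask, Dlg1, Dmd, Myh6, Nnt, Nppa and Cdkn1a. Some genes that the rule takes are not reported here. Others named were singled out after their values were seen. The members and lists were chosen with earlier results of these data known. P-values measure the spread between mice, which within WT can include the round of sequencing and the strain label.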

Additional observations from a re-analysis of the deposited data

Results flagged for a closer look

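Among 153 named genes, 25 had 1 WT library far from the other 4, a gap that chance gives in about 1 in 20 groups. WT replicate 3 held 13 of them. It was high for mitochondrially encoded messengers (mt-Nd6 6700 CPM, mt-Nd5 11100 CPM, mt-Nd4l 255 CPM), for the immediate-early genes Fos (244 CPM), Nr4a1 (202 CPM) and Dusp1 (125 CPM), and for Rn7s1 (1540 CPM), Cox6a2 (6410 CPM), Mb (15700 CPM), Gpx3 (96.5 CPM), Oasl2 (5.07 CPM), Wt1 (4.9 CPM) and Timp1 (1.37 CPM). WT replicate 5 was high for Cdkn1a (10.2 CPM, the other WT libraries 4.24 to 5.07 CPM), Myl2 (18900 CPM), Uqcrb (220 CPM), Rpl32 (15.7 CPM), Uchl1 (5.34 CPM), Vaultrc5 (4.27 CPM) and Maats1 (0.128 CPM). WT replicate 4 was high for the proliferation marker Mki67 (10.8 CPM, the others 1.31 to 2.51 CPM), H2-Q6 (6.82 CPM), Cmpk2 (3.77 CPM) and Nlrc5 (3.09 CPM), and WT replicate 1 for Hba-a1 (11.4 CPM). Each of these libraries was the highest of its group.

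Dlg1 responded differently in both lines, by a difference of log2 fold changes of 2.36, as the gene deleted in SAP97 KO.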

How the results depend on the processing

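Against 60 genes called, DESeq2 called 411, edgeR with no filter on low counts 272, with no annotation filter 146, in 1 model of all groups 291, at a threshold of an adjusted p of 0.05 224, with the counts of the table of all libraries (6 libraries) 18 and with only the WT libraries labelled C57Bl/6J 37. Leaving out 1 library gave 4 to 62 calls. No call reversed. RLE factors, scaling without mitochondrial and non-polyadenylated RNA, and age as a covariate stayed within 1.5 times. Over 1080 pairs of called gene and setting, 621 kept the call and 459 lost it with the direction kept. Of 17 called list members, DESeq2 gave 59, no low-count filter 49, 1 model of all groups 44, the 0.05 threshold 41 and the table of all libraries 9, and leaving out 1 library 4 to 20. For the difference of both effects, 1 gene was called against 90 with no low-count filter and 1 to 5 when leaving out 1 library. The cause was not tested.

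With the replicate number as a replicate block, 0 genes and 0 list members were called (1148 higher and 1453 lower at an unadjusted p under 0.05), and 3 for the difference of effects. Same-numbered libraries deviated with correlations of 0.281, -0.0836 and -0.182, and the labels give no shared origin, so the numbers do not pair the samples.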

Other observations

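Genes of energy metabolism leaned slightly lower in Cre-only with no call at 0.01. Of 30 genes of fatty acid oxidation, 27 had a negative log2 fold change, with a median of -0.25, and Ppargc1a, the coactivator that drives mitochondrial biogenesis, had 61.8, 54.3 and 65.7 CPM in Cre-only and 92.3 to 121 CPM in WT (edgeR adjusted p = 0.0317). Of 39 nuclear genes of the respiratory chain, none had an unadjusted p under 0.05. Glucose genes had values on both sides. Pfkp, the platelet-type phosphofructokinase, had 94.1, 152 and 78.7 CPM in Cre-only and 35.0 to 48.2 CPM in WT (edgeR adjusted p = 0.0106), and Pfkfb1, a regulator of glycolysis in liver and muscle, had 0.76, 1.31 and 2.33 CPM in Cre-only and 5.59 to 20.9 CPM in WT (edgeR adjusted p = 0.0247). Nnt, the transhydrogenase that is mutated in C57Bl/6J mice, had 559, 522 and 526 CPM in Cre-only and 649, 841, 515, 902 and 792 CPM in WT, with a log2 fold change of -0.47 (edgeR adjusted p = 0.354), and WT replicates 1 and 2, labelled C57Bl/6J, were not low.

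Interferon and antigen presentation genes had no call. Of 32 interferon response genes, 26 had a negative log2 fold change, while Ifit2 had 11.7, 13.5 and 13.0 CPM in Cre-only and 5.44 to 8.46 CPM in WT (edgeR adjusted p = 0.0387). Of 26 cardiac transcription factors, 23 had a negative log2 fold change with a median of -0.31, and Hand2 had 7.32, 7.93 and 8.11 CPM in Cre-only and 9.73 to 23.8 CPM in WT (edgeR adjusted p = 0.0911). Cytosolic ribosomal protein genes had a median of 0.0 over 34 genes.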
